A study of Mus musculus with 18 samples.

Results

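Macrophages that had met CpG DNA before lipopolysaccharide (LPS) were compared with macrophages that met LPS alone, over all 53796 accessible regions deposited for the study. The comparison rests on 4 of the 18 ATAC-seq libraries, namely 2 CpG-then-LPS libraries (CpG at 100 nM for 4 h, then fresh medium with LPS at 1 ng/mL for 4 h) and 2 LPS-alone libraries (medium for 4 h, then LPS at the same dose for 4 h). All cells were bone marrow-derived macrophages (BMDM) of wild-type C57BL/6 mice aged 6 to 12 weeks, grown with M-CSF at 20 ng/mL and replated on day 7. Further contrasts give context. CpG alone (medium, then CpG at 100 nM) was set against medium alone, CpG before TNF (10 ng/mL) against TNF alone, and CpG before LPS against polyI:C (1 µg/mL) before LPS, with 2 libraries in each group. Replicate numbers are given in the labels, but no separate animals or cultures, so p-values measure the spread between these libraries, which may be technical. Because cells given CpG first had been stimulated for longer in total than cells given LPS alone, prior exposure to CpG and length of stimulation cannot be told apart.

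CpG DNA is sensed by TLR9 in endosomes and signals through MyD88, whereas LPS is sensed by TLR4 at the cell surface and signals through both MyD88 and TRIF. Both receptors activate NF-kB, MAP kinases and AP-1 factors, and TLR4 through TRIF also activates IRF3 and interferon beta. A first exposure can change how macrophages answer a second stimulus, which is known as tolerance where the second response is reduced and as priming where it is enhanced. ATAC-seq inserts adapters into DNA that is not covered by nucleosomes, so the reads in a region measure how accessible it was. In bulk cells, a lower value from fewer cells with an open region and one from a less open region in every cell cannot be told apart.

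Several promoters show what the accessible DNA at genes named in the results looks like. The bases before the annotated gene start are printed 5′ to 3′ on the gene's strand, from RefSeq's GRCm38.p6 promoter table. Capitals mark matches to the motifs chosen for display at each promoter. Other motifs counted below, such as the PU.1 letters GAGGAA in Ifi213, are not marked. The promoters of Ifi213 (chr1:173599273-173599422, - strand) and Ifi205 (chr1:174031756-174031905, - strand), members of the interferon-inducible PYHIN family that includes DNA sensors, carried the letters of an interferon-stimulated response element (ISRE). They are shown because their regions were higher after CpG.
Ifi213: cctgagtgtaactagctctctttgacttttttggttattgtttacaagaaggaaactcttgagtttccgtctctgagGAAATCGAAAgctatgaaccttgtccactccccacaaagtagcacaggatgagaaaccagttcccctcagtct
Ifi205: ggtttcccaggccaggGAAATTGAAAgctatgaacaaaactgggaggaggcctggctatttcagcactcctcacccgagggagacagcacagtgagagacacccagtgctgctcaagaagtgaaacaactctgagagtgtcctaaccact
The promoters of Ptgs2 (chr1:150099881-150100030, + strand), the inducible cyclooxygenase, and Cp (chr3:19957099-19957248, + strand), the copper-carrying ferroxidase ceruloplasmin, carried C/EBP letters, and that of Ifitm3 (chr7:141010745-141010894, - strand), which restricts virus entry, carried kB and AP-1 letters. Their regions were also higher.
Ptgs2: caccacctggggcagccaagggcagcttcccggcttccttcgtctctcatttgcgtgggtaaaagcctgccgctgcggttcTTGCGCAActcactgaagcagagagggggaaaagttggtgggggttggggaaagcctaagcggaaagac
Cp: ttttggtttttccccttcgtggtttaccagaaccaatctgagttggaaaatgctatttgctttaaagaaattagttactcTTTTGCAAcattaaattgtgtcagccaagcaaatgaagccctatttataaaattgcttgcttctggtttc
Ifitm3: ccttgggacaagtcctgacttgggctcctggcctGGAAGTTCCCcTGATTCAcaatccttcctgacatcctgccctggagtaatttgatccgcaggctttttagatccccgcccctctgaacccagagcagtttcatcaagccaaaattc
Il6 (chr5:30012864-30013113, + strand), which encodes a cytokine of the acute phase response, is shown because its promoter held kB, C/EBP and AP-1 letters together.
Il6: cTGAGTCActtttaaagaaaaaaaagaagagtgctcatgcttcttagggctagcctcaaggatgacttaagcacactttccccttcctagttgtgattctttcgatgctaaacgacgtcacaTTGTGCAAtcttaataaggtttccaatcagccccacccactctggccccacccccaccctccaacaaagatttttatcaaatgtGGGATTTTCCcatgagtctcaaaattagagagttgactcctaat
Cxcl10 (chr5:92348890-92349139, - strand), a chemokine for T cells, and Nfkbia (chr12:55492648-55492797, - strand), which encodes the NF-kB inhibitor IkB alpha, are shown because their promoter regions were unlike the others, with no call and a lower value.
Cxcl10: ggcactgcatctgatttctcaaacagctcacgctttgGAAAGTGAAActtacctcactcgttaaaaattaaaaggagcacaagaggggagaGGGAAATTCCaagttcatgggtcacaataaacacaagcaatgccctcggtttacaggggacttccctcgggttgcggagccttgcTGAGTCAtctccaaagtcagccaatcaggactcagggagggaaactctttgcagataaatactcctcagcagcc
Nfkbia: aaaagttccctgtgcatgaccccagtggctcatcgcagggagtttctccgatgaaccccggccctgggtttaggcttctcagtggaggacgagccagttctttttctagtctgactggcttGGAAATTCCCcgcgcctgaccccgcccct

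In log2 CPM, that is log2 read counts scaled to library size, the unit of the deposited values, the region over the Cp promoter had 4.57 and 4.45 in the CpG-then-LPS libraries, against 2.61 and 2.18 in the LPS-alone libraries. The Ifitm3 promoter region had 4.30 and 4.20 after CpG and LPS, against 3.07 and 3.11 after LPS alone, a log2 difference of 1.16 ± 0.20 (SE, adjusted p = 7.15e-05). For Ifi213 the values were 3.53 and 2.93 in CpG-then-LPS cells, against 2.20 and 2.24 in LPS-alone cells, and the difference was 1.01 ± 0.24 (adjusted p = 0.00259), a call lost without CpG-then-LPS replicate 1 (0.71, adjusted p = 0.124). In each of these promoters both CpG-then-LPS libraries lay above both LPS-alone libraries. Ifi205 was higher by 0.76 ± 0.15, Ptgs2 by 0.80 ± 0.15 and Il6 by 0.59 ± 0.15 on the log2 scale. The Nfkbia promoter region was lower after CpG, with 6.11 and 6.35 in CpG-then-LPS cells, against 6.78 and 6.83 in LPS-alone cells, and Cxcl10 had 5.03 and 5.06 with CpG before LPS, against 4.99 and 5.06 with LPS alone. The calls at Il6 and Nfkbia were lost without 1 library, at Il6 without CpG-then-LPS replicate 2 (0.47, adjusted p = 0.0919) or LPS-alone replicate 1 (0.54, adjusted p = 0.0734), and at Nfkbia without CpG-then-LPS replicate 1 (-0.45, adjusted p = 0.0801).

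Motif letters were then counted over all promoters whose 250 bases before the start lay wholly in a region, on both strands. The ISRE letters (GAAA, any 2 bases, then GAAA) were in 9.52% of the 168 promoters in higher regions, in 0.866% of the 462 in lower regions and in 2.48% of all 7326 (2.98% of the 32536 promoters in the table). C/EBP letters, TTGCNNAA, were in 15.5% of higher, 7.58% of lower and 7.43% of all such promoters. The AP-1 letters TGANTCA were in 8.33% of higher, 7.58% of lower and 4.68% of all, and the kB letters (GGGA, any 2 bases, then TTCC) in 2.98% of higher, 1.95% of lower and 1.5% of all. PU.1 letters, GAGGAA, were in 28.0% of higher, 23.6% of lower and 23.4% of all. These are counts of letters with no test, different motifs can overlap in a promoter, and a match is not a bound site. Ifi213, Ifi205, Ifitm3 and Ptgs2 were picked for display after their values were seen.

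The 4 libraries held 3901543 and 4996158 reads in regions after CpG and LPS, against 5277854 and 5623166 after LPS alone, within the range of 3141641 to 5986835 over all 18 libraries. Replicates correlated across regions at 0.958 in CpG-then-LPS cells and 0.973 in LPS-alone cells. The spread of log2 CPM across regions was narrower in CpG-then-LPS libraries, with SDs of 0.996 and 1.00, against 1.13 in both LPS-alone libraries and 1.24 in both medium-only libraries. Regions of macrophage marker genes (Csf1r, Spi1, Adgre1, Cd68, Itgam, Mertk, Fcgr1, Lyz2) within 1 kb of a gene end were accessible, with means of 24.0 and 22.7 CPM in CpG-then-LPS libraries, against 27.8 and 26.6 CPM in LPS-alone libraries. All 8 of these genes had such a region, against 3 of 19 T and NK cell genes, 3 of 12 B cell genes, 5 of 15 neutrophil genes, 4 of 12 dendritic cell genes, 5 of 18 erythroid, mast and progenitor genes and 3 of 18 stromal genes. The means over those few regions were 12.7 to 27.5 CPM in CpG-then-LPS libraries and 11.4 to 26.9 CPM in LPS-alone libraries, so the level of a region did not separate macrophage genes from genes of other cells. Over all regions, 10.5% rose with CpG before LPS and 6.42% fell. Of the regions assigned to marker genes of other cells, 11 of 59 rose (18.6%) and 5 fell (8.47%) for dendritic cells, 7 of 43 rose (16.3%) and none fell for stroma, 4 of 22 rose (18.2%) and none fell for erythroid, mast and progenitor cells, 2 of 23 rose and 1 fell for T and NK cells, 1 of 20 rose and 1 fell for B cells, and 1 of 20 rose and none fell for neutrophils. After quantile normalization the rises were 9, 4 and 3 for the first 3 of these lists, and the falls were 7, 0 and 0. The part of other cells in the results was not tested.

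Accessibility differed in 9127 regions, 17.0% of all tested. CpG before LPS was higher in 5671 regions (10.5% of all) and lower in 3456 (6.42% of all), by limma with Benjamini-Hochberg adjustment over all regions. Called rises were larger than called falls, and by how much depended on the scaling. SEs differed between regions, and a region with a larger SE needs a larger difference to be called. How far this shaped the sizes was not tested. The median log2 difference was 0.89 among higher and -0.61 among lower regions, and 2119 of the higher regions (37.4%) but 196 of the lower (5.67%) changed by at least 2-fold. After quantile normalization the medians were 0.84 and -0.73, and 1495 of 4464 higher regions (33.5%) and 662 of 4156 lower regions (15.9%) changed by at least 2-fold. Under the shift of each library to the same median these counts were 1655 (39.1%) and 385 (6.63%). Higher regions had a median level of 3.78 log2 CPM in CpG-then-LPS cells against 2.81 in LPS-alone cells. Lower regions had 4.27 in CpG-then-LPS cells, against 4.88 in LPS-alone cells, and all regions 3.77 against 3.68. The levels of both groups enter the difference that makes the call, so part of this contrast is built in. Both libraries of each group lay apart from the other group in 5666 of the higher and 3454 of the lower regions. Over all regions, the CpG-then-LPS libraries lay above both LPS-alone libraries in 34.3% and below them in 27.3%.

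The balance of rises and falls depended on how libraries were scaled. Higher regions made up 62.1% of those called with the deposited values, 51.8% after quantile normalization and 42.2% after each library was shifted to the same median (4231 higher, 5804 lower). They made up 49.4% when the lowest quartile of regions by mean level was left out, where 2881 were higher and 2946 lower. Leaving out LPS-alone replicate 1 left 3851 calls, and leaving out CpG-then-LPS replicate 1, CpG-then-LPS replicate 2 or LPS-alone replicate 2 left 3883, 5597 or 4744 calls.

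Rises and falls were found at different levels and places. In the lowest quartile of regions by mean level over all 18 libraries, 19.3% were higher and 2.00% lower in CpG-then-LPS cells, whereas in the highest quartile 3.92% were higher and 13.5% lower. After quantile normalization, 12.7% of the lowest quartile were higher and 8.74% of the highest quartile were lower. Regions over a promoter window (8233) were higher in 2.60% and lower in 6.15%, against 12.0% and 6.47% of the 45563 other regions. The share of promoter regions that were lower was 3.98% after quantile normalization, when 4.87% were higher, so the direction at promoters turned with the scaling. More than 50 kb from any protein-coding gene, 13.5% of 4956 regions were higher and 4.64% lower with the deposited values. Their median levels were low, 3.54 log2 CPM in CpG-then-LPS cells and 3.36 in LPS-alone cells, and other scalings were not run for them. Within promoters the same dependence on level was seen, with 8.30% higher and 1.19% lower in the lowest quartile and 2.10% higher and 8.45% lower in the highest. Outside promoter windows these shares were 19.5% and 2.02%, then 4.98% and 16.4%.

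**Figure D1:**
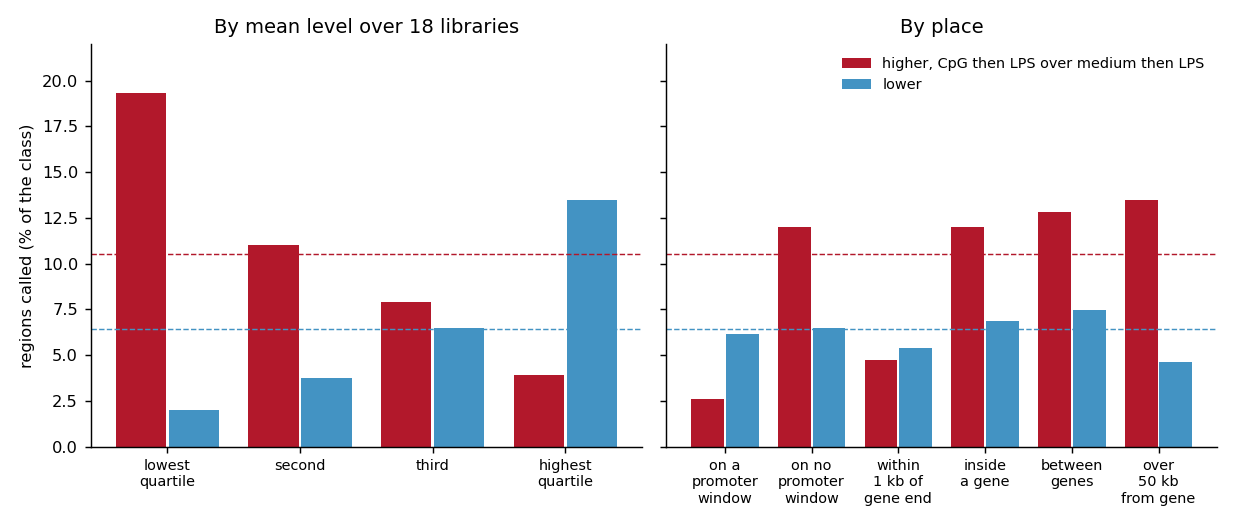
Bars give the percentage of regions called higher (red) or lower (blue) in CpG-then-LPS over LPS-alone libraries, by quartile of mean level over 18 libraries (left) and by place (right), and dashed lines give the percentages over all regions (10.5% and 6.42%). The share higher is 19.3% in the lowest and 3.92% in the highest quartile, and the share lower is 2.00% and 13.5%.

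The regions with the largest rises had low values after LPS alone, which are part of the difference that ranked them. A region inside Svil, which encodes the actin-binding protein supervillin (chr18:5085333-5085834, GRCm38), had 4.60 and 4.56 log2 CPM in CpG-then-LPS libraries, against 1.53 and 0.75 in LPS-alone libraries. It had 93 and 115 reads after CpG and LPS, against 12 and 6 reads after LPS alone, and the log2 difference was 3.44 ± 0.42 (SE, n = 2 each, adjusted p = 3.93e-07). The groups were far apart at this region, and the deposited log2 values understate such folds because about 3 reads were added to each library before taking logs. Next came a region 87 bases from Saa3, an acute phase protein made by activated macrophages (chr7:46711410-46711911), with 4.06 and 4.07 log2 CPM after CpG and LPS, against 0.81 and 0.59 after LPS alone. A region inside Usp25, a deubiquitinase (chr16:77068329-77068830), had 4.63 and 4.45 with CpG before LPS, against 1.09 and 1.46 log2 CPM with LPS alone, a difference of 3.26 ± 0.29. Both regions were picked among those where the groups did not overlap.

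Among the other large rises was a region 3104 bases from Itgb2, the beta-2 integrin chain of leukocytes (chr10:77526724-77527225), with 3.77 and 3.72 log2 CPM in CpG-then-LPS cells, against 1.09 and 0.20 in LPS-alone cells. The most precisely measured was near Gna13, a G protein alpha subunit (chr11:109410498-109410999), with 5.47 in both CpG-then-LPS libraries, against 2.42 and 2.70 in LPS-alone libraries. Its difference was 2.91 ± 0.21 (adjusted p = 1.78e-11), which is 7.52-fold. Regions inside Sox5 (3.14 ± 0.38), Fmn1, a formin that nucleates actin (2.98 ± 0.30), Cyb5r4 (2.82 ± 0.38) and Clec16a, which acts in mitophagy (2.82 ± 0.31), also rose. In Sox5 the LPS-alone libraries were 1.22 and -0.33, the widest replicate spread among these. All of these regions kept their call when any of the 4 libraries was left out.

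**Figure D2:**
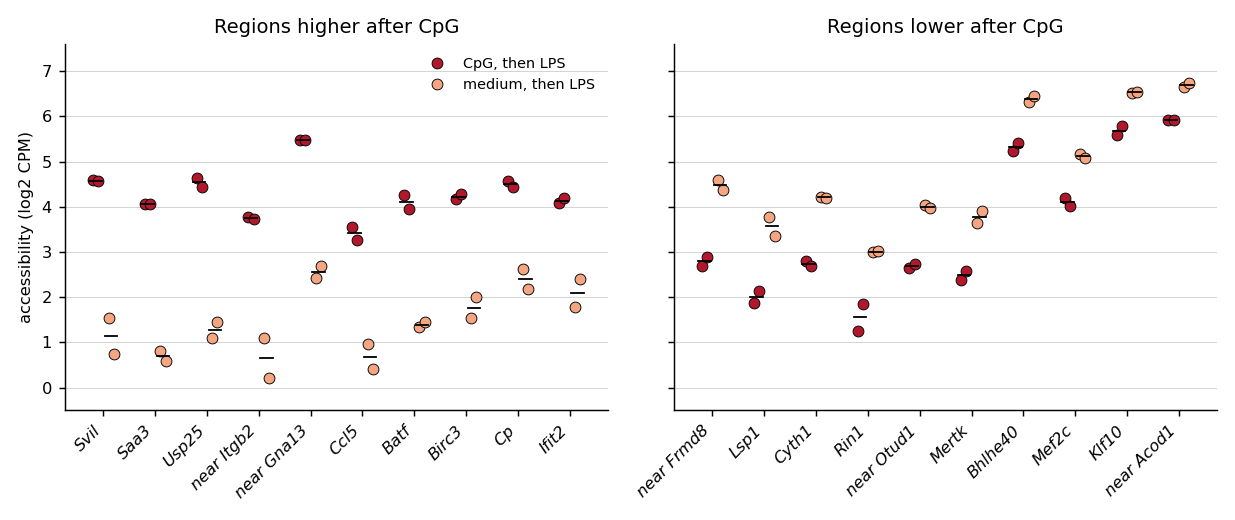
Points are log2 CPM of single libraries (2 per group) and bars are group means, with CpG-then-LPS libraries in dark red to the left of LPS-alone libraries in light red. The largest rises and falls were picked among regions where the groups do not overlap, and none of the 20 regions shown overlaps. The CpG-then-LPS values of the rises (left) lie between 3.26 and 5.47.

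Interferon-stimulated genes, most of which act against viruses, rose as a group more often than regions in general. Of their 196 regions 66 rose (33.7%, against 10.5% of all regions) and 6 fell (3.06%, against 6.42%), with a median log2 difference of 0.35 against 0.04 over all regions. The rises came from 29 of the 51 genes with a region. After quantile normalization 57 rose and 4 fell, and after the shift to the same median 57 rose and 7 fell. The list also rose without LPS. After CpG alone against medium, 125 of the 196 regions were higher and 2 lower (median 0.70), against 17.7% higher over all regions. With CpG before TNF against TNF alone, 75 were higher and 3 lower (median 0.41), against 11.2% higher over all regions. The list was chosen with earlier results of these data known.

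At Ccl5, a chemokine for T cells and monocytes, a region 739 bases from the gene (chr11:83524538-83525039) had 3.56 and 3.26 log2 CPM in CpG-then-LPS cells, against 0.96 and 0.41 in LPS-alone cells, a difference of 2.73 ± 0.33 (adjusted p = 3.20e-07). The Ccl5 region at the gene itself (chr11:83530280-83530781) had 3.65 and 3.74 in CpG-then-LPS cells, against 2.32 and 2.58 in LPS-alone cells, and rose by 1.25 ± 0.26. Near Ifit2, which binds viral RNA and restrains its translation, the values were 4.08 and 4.18 in CpG-then-LPS cells, against 1.79 and 2.39 in LPS-alone cells, and 5 of its 8 regions rose. No library of the LPS-alone group reached the CpG-then-LPS values at these regions. Usp18, which removes ISG15 from proteins and dampens interferon receptor signalling, had 4.87 and 5.04 after CpG and LPS, against 3.00 and 3.14 after LPS alone. Zbp1, a sensor of Z-form nucleic acid, had 4.43 and 4.02 with CpG before LPS, against 2.66 and 2.53 with LPS alone, and 3 of its 6 regions rose. All regions of Isg15 (2), Isg20 (2) and Ifi44 (3) rose, as did 5 of 9 of Gbp5 and 5 of 7 of Trim30a. The promoter of Irf7, the factor that amplifies type I interferon, rose by 0.69 ± 0.19 (adjusted p = 0.00958), a call that was lost without a variance trend (adjusted p = 0.0605), without CpG-then-LPS replicate 2 (0.62, adjusted p = 0.0913) and without LPS-alone replicate 2 (0.59, adjusted p = 0.110). The exceptions were regions of Irf1 (2 of 9 fell, none rose), Ifi35 and Lgals3bp (1 each fell), Rsad2 and Trim25 (1 each fell beside 4 and 1 that rose). The Cxcl10 promoter had no call, but the other 2 Cxcl10 regions rose, by up to 1.77 on the log2 scale.

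Acute phase and antimicrobial genes also rose more often than regions in general, in 27 of 87 regions (31.0%, against 10.5% of all regions). In this list 3 regions fell (3.45%, against 6.42%). The median difference was 0.29, and 24 rose and 3 fell after quantile normalization. This list also rose without LPS, with 49 of the 87 regions higher and 3 lower after CpG alone (median 0.76). Over all regions 17.7% were higher and 9.23% lower after CpG alone. With CpG before TNF 30 were higher and 4 lower (median 0.35), against 11.2% and 6.18% of all regions. The second Saa3 region, at the gene (chr7:46712169-46712670), had 4.44 and 4.50 log2 CPM after CpG and LPS, against 1.87 and 1.94 after LPS alone, a difference of 2.57 ± 0.27 (adjusted p = 3.86e-08), and 3 of the 4 Saa3 regions rose. At Cp, 3 of 4 regions rose, and the promoter region described above rose by 2.11 ± 0.25 (adjusted p = 2.49e-07). Fpr1 and Fpr2, the receptors for formylated bacterial peptides, had 5 of 6 and 5 of 9 regions higher. The Fpr2 promoter region had 3.77 and 3.79 in CpG-then-LPS cells, against 2.26 and 2.18 log2 CPM in LPS-alone cells. Msr1, a scavenger receptor, rose in 5 of 13 regions and Cfb, complement factor B, in its single region by 1.32. The regions that fell were 1 each of Orm1, Lyz1 and Lyz2, which encode an acute phase glycoprotein and lysozymes.

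**Figure D3:**
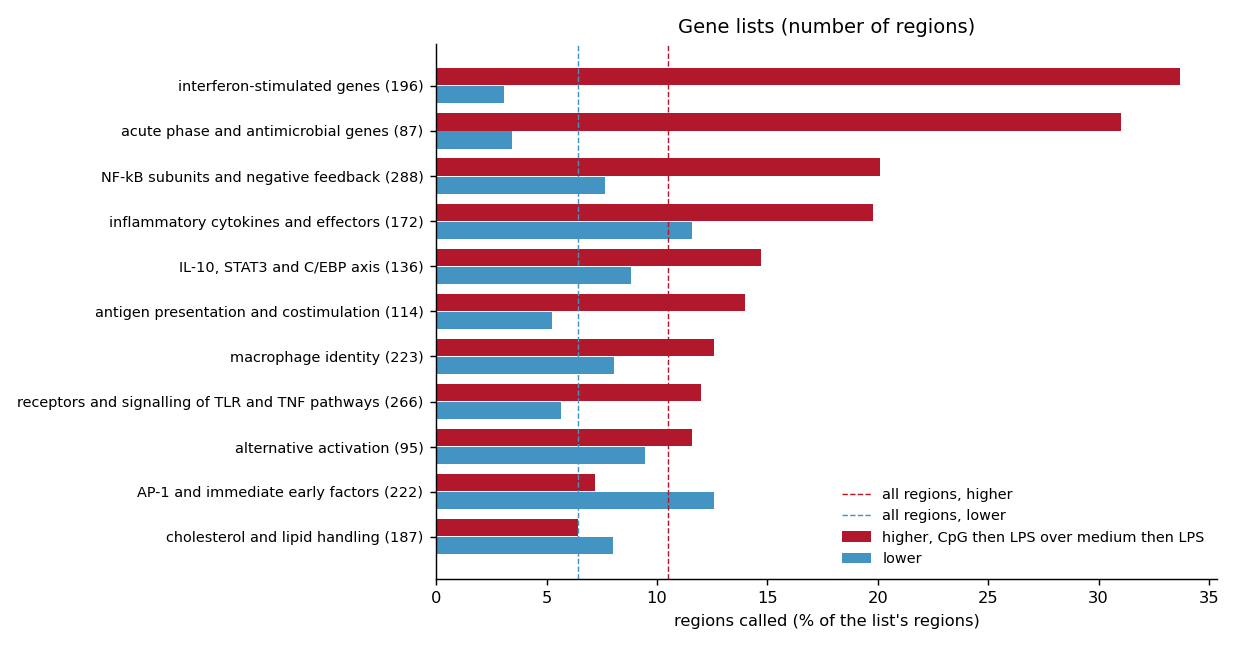
Bars give the percentage of each list's regions called higher (red) or lower (blue) in CpG-then-LPS over LPS-alone libraries, with the number of regions in brackets and dashed lines at the percentages over all regions. Interferon-stimulated genes (33.7% higher) and acute phase and antimicrobial genes (31.0%) stand at the top, and AP-1 and immediate early factors (7.21% higher, 12.6% lower) near the bottom.

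Inflammatory cytokines and effectors moved in both directions. Of their 172 regions 34 rose (19.8%, against 10.5% of all regions) and 20 fell (11.6%, against 6.42%). The median difference was 0.07, which turned to -0.03 under the shift to the same median. After CpG alone 98 of the 172 were higher and 9 lower, against 17.7% and 9.23% of all regions. With CpG before TNF 52 were higher and 14 lower, against 11.2% and 6.18% of all regions. Il12b, which encodes the p40 subunit of IL-12 and IL-23, had 5.52 and 5.29 log2 CPM in the region at its gene end (chr11:44414555-44415056) in CpG-then-LPS cells, against 4.35 and 4.36 in LPS-alone cells. This region had 5.28 and 4.86 log2 CPM after CpG alone, and 5.18 in both medium-only libraries. LPS alone thus had the lowest values among these groups, and the CpG effect was larger before LPS than alone by 1.16 ± 0.22 (adjusted p = 0.000354). A distal Il6 region, 39881 bases from the gene (chr5:29972732-29973233), had 3.94 and 4.03 after CpG and LPS, against 2.32 and 2.24 after LPS alone, and near Il1rn, the IL-1 receptor antagonist, the values were 3.87 and 3.70 with CpG before LPS, against 2.26 and 1.87 with LPS alone. Both regions were higher without overlap. At Acod1, which makes the antimicrobial metabolite itaconate, 10 of 22 regions rose, yet the most significant was a fall. That region (chr14:103058961-103059462) had 5.92 and 5.93 log2 CPM in CpG-then-LPS cells, against 6.65 and 6.74 in LPS-alone cells, a difference of -0.77 ± 0.10 (adjusted p = 1.39e-06). Ccl2, a monocyte chemokine, fell in 5 of 9 regions and Csf1, the macrophage growth factor, in 2 of 6.

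At several classical LPS-induced genes the regions at or near the gene given next were not called higher after CpG. They are grouped here by that outcome, and regions at Il6, Il12b, Ccl5 and Saa3, described above, were called higher. After LPS alone the regions of Tnf, Acod1 and Il1b lay well above the median of all regions (3.68 log2 CPM), and that of Nos2 lay near it. The Tnf promoter had 5.05 and 5.26 log2 CPM after CpG and LPS, against 5.60 and 5.54 after LPS alone, a difference of -0.41 ± 0.15 (adjusted p = 0.0586). This value passed the threshold under the shift to the same median (-0.51, adjusted p = 0.0177), with only the compared groups in the fit (adjusted p = 0.00442) and with voom weights on the recovered reads (adjusted p = 0.0264). The Acod1 promoter had 5.61 and 5.38 in CpG-then-LPS cells, against 5.26 and 5.30 log2 CPM in LPS-alone cells, and the region at a gene end of Nos2, inducible nitric oxide synthase, had 4.14 and 4.10 after CpG and LPS, against 3.93 and 3.84 after LPS alone. At both genes the CpG-then-LPS libraries lay above the LPS-alone libraries, as in 34.3% of all regions, but neither difference was called. A region near Il1b had 5.36 and 5.42 with CpG before LPS, against 5.48 and 5.54 with LPS alone (adjusted p = 0.653). Near Il1a the value fell by 0.60 ± 0.15 (adjusted p = 0.00446), a call lost without CpG-then-LPS replicate 1 (-0.51, adjusted p = 0.0911) or LPS-alone replicate 1 (-0.54, adjusted p = 0.0757).

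NF-kB subunits and their negative feedback genes rose in 58 of 288 regions (20.1%, against 10.5% of all) and fell in 22 (7.64%, against 6.42%). The median difference of 0.03 turned to -0.07 under the shift to the same median. Among the list's 66 regions within 1 kb of a gene end, 8 rose (12.1%) and 7 fell (10.6%), with a median of -0.05. Over all regions so placed, 4.75% were higher and 5.37% lower. A region inside Nfkb1, which encodes p105 and p50 (chr3:135689537-135690038), had 3.43 and 4.03 log2 CPM in CpG-then-LPS cells, against 1.44 and 1.55 in LPS-alone cells, and rose by 2.24 ± 0.32. The Nfkb1 region at a gene end had 4.46 and 5.05 in CpG-then-LPS cells, against 5.10 and 5.15 in LPS-alone cells, and was called only under the shift (-0.46, adjusted p = 0.0414), with only the compared groups in the fit (adjusted p = 0.0370) or without CpG-then-LPS replicate 2 (-0.66, adjusted p = 0.0192). Near Dusp2, a phosphatase that acts on MAP kinases, the values were 5.13 and 5.28 after CpG and LPS, against 3.42 and 3.63 after LPS alone, a rise of 1.68 ± 0.18. A region 21875 bases from Il10, the anti-inflammatory cytokine (chr1:130997469-130997970), had 4.89 and 4.94 with CpG before LPS, against 3.16 and 2.99 with LPS alone and rose by 1.84 ± 0.24, whereas the region close to the Il10 gene had 5.13 and 4.89 in CpG-then-LPS cells, against 4.95 and 5.03 in LPS-alone cells (adjusted p = 0.960). Irak3, which restrains TLR signalling, rose in 6 of 14 regions and Nfkbiz, an atypical IkB protein, in 5 of 12. The regions of Nfkbia itself moved both ways, with 6 of 15 higher and 2 lower. Dusp4 fell in 4 of 11 regions. The region with the largest fall of the list, assigned to the deubiquitinase gene Otud1 from 49463 bases away, had 2.64 and 2.72 after CpG and LPS, against 4.03 and 3.98 log2 CPM after LPS alone.

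Genes of the IL-10, STAT3 and C/EBP axis rose in 20 of 136 regions (14.7%, against 10.5% of all) and fell in 12 (8.82%, against 6.42%). The median of 0.05 was -0.03 after quantile normalization, and under the shift to the same median 17 rose and 19 fell. TLR and TNF pathway genes, from receptors to kinases and adaptors, rose in 32 of 266 regions (12.0%), near the 10.5% of all regions, and fell in 15 (5.64%). Under the shift to the same median the balance turned, with 21 higher (7.89%) and 31 lower (11.7%). Birc3, the cIAP2 ubiquitin ligase of TNF receptor signalling, accounted for 6 of these rises from 7 regions. Its region at chr9:7857102-7857603 had 4.16 and 4.28 log2 CPM in CpG-then-LPS cells, against 1.53 and 2.00 in LPS-alone cells, a difference of 2.45 ± 0.30 (adjusted p = 5.01e-07). A region near Ifnar2, a chain of the type I interferon receptor, rose by 1.34 ± 0.25. Of 11 Tlr4 regions 2 rose and none fell.

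AP-1 and immediate early factors had more falls than rises. Of 222 regions 16 were higher (7.21%, against 10.5% of all) and 28 lower (12.6%, against 6.42%), with a median of -0.07. After quantile normalization 14 rose and 29 fell. The region at a gene end of Bhlhe40, a basic helix-loop-helix repressor induced in activated macrophages (chr6:108660206-108660707), had 5.23 and 5.42 log2 CPM in CpG-then-LPS cells, against 6.33 and 6.45 in LPS-alone cells. Its difference was -1.07 ± 0.11 (adjusted p = 3.28e-08). Klf10 fell to 5.58 and 5.80 in CpG-then-LPS cells, against 6.53 and 6.54 in LPS-alone cells. In contrast, Batf, an AP-1 factor that pairs with JUN proteins and IRF4 or IRF8, rose in 5 of 8 regions. Its intragenic region at chr12:85700737-85701238 had 4.26 and 3.94 with CpG before LPS, against 1.33 and 1.46 with LPS alone, a difference of 2.71 ± 0.32, while its most accessible region had 5.77 and 5.97 in CpG-then-LPS cells, against 5.86 and 5.66 in LPS-alone cells. The Fos promoter had 4.72 and 4.93 after CpG and LPS, against 4.99 and 4.92 after LPS alone (adjusted p = 0.726).

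Macrophage identity genes moved close to the background, with 28 of 223 regions higher (12.6%, against 10.5% of all) and 18 lower (8.07%, against 6.42%). Under the shift to the same median, however, 22 rose and 31 fell (13.9%). Near Zeb2, a repressor needed for macrophage identity, a region had 4.85 and 4.77 log2 CPM after CpG and LPS, against 3.13 and 3.33 after LPS alone, and 9 of 20 Zeb2 regions rose. In contrast, Mertk, the receptor for apoptotic cells, had 2.38 and 2.59 with CpG before LPS, against 3.65 and 3.91 with LPS alone, a fall of 1.30 ± 0.24 (adjusted p = 0.000158). Mef2c, a factor of myeloid cells, fell by 1.01 ± 0.15, and Csf1r, the M-CSF receptor, had 5.26 and 5.07 against 5.69 in both LPS-alone libraries. The Csf1r call (-0.52 ± 0.15, adjusted p = 0.0113) was lost without a variance trend (adjusted p = 0.0561) and without CpG-then-LPS replicate 2 (-0.43, adjusted p = 0.126), LPS-alone replicate 1 (-0.53, adjusted p = 0.0815) or LPS-alone replicate 2 (-0.52, adjusted p = 0.0749). Cholesterol and lipid genes rose in 12 of 187 regions (6.42%) and fell in 15 (8.02%), and under the shift 9 rose and 30 fell (16.0%). Abca1, the cholesterol exporter, rose in 3 of 17 regions and had, in the most significant, 4.39 and 4.22 in CpG-then-LPS cells, against 2.90 and 3.08 log2 CPM in LPS-alone cells, and Ppard, a lipid-sensing nuclear receptor, fell in 3 of 5. Alternative activation genes rose in 11 of 95 regions (11.6%) and fell in 9 (9.47%), against 9 that rose and 16 that fell under the shift, and 6 of those rises were at Pdcd1lg2, which encodes the checkpoint ligand PD-L2. Antigen presentation and costimulation genes rose in 16 of 114 regions (14.0%, against 10.5% of all regions) and fell in 6 (5.26%, against 6.42%), with a median of -0.04. The 16 rises were spread over 7 genes, with 6 again at Pdcd1lg2 and 3 at Cd274 (PD-L1), which had 7 regions. Within 1 kb of a gene end none of 33 regions of this list rose and 3 fell, and after quantile normalization 10 of the 114 rose and 8 fell. Ciita, the activator of MHC class II genes, had 3.33 and 3.72 after CpG and LPS, against 4.33 and 4.30 after LPS alone, a fall of 0.79 ± 0.19 that was not called without CpG-then-LPS replicate 1 (-0.59, adjusted p = 0.113). Cell cycle genes had 5 of 74 regions higher and 3 lower, and 2 higher and 10 lower under the shift.

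The largest falls were smaller than the largest rises. The first was a region at chr19:5812015-5812516 assigned to Frmd8 from 38458 bases away, with 2.69 and 2.89 log2 CPM in CpG-then-LPS cells, against 4.59 and 4.38 in LPS-alone cells. The difference was -1.69 ± 0.22 (adjusted p = 1.46e-06). A region inside Lsp1, a leukocyte actin-binding protein, had 1.88 and 2.14 with CpG before LPS, against 3.78 and 3.36 with LPS alone, and one inside Slc1a2, a glutamate transporter, 1.54 and 1.77 in CpG-then-LPS cells, against 3.39 and 2.92 in LPS-alone cells. These, too, were picked among regions where the groups did not overlap. Promoter regions were among the falls. That of Cyth1, an exchange factor for ARF GTPases that acts in leukocyte adhesion, had 2.80 and 2.68 after CpG and LPS, against 4.22 and 4.19 after LPS alone (-1.46 ± 0.19, adjusted p = 1.49e-06), and that of Rin1, an effector of RAS, had 1.26 and 1.85 with CpG before LPS, against 3.00 and 3.02 with LPS alone (-1.45 ± 0.26). Intragenic regions of Hdac4, a class IIa histone deacetylase (-1.40 ± 0.28), and Pacsin2, a membrane-shaping protein (-1.35 ± 0.23), also fell. Each of these falls kept its call when any of the 4 libraries was left out.

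The largest fall lies between the long non-coding RNA genes Malat1 (chr19:5795690-5802672) and Neat1 (chr19:5824708-5845480), which the assignment to protein-coding genes leaves out and which were looked up after the values were seen. NEAT1 RNA is the scaffold of nuclear paraspeckles, and MALAT1 RNA is found in nuclear speckles. All 25 regions from 5 kb beside Malat1 to 5 kb beyond Neat1 had a lower mean in CpG-then-LPS than in LPS-alone cells, as did 46.1% of all regions. Of the 25, 12 fell, against 6.42% of all regions and 9.19% of those on chromosome 19, none rose, and the differences ranged from -1.69 to -0.04 with a median of -0.63. The locus was described because it held the largest fall, so these counts are a description. Of the 13 regions on Neat1 5 fell. The region across its far end from Malat1 (chr19:5845340-5845841) had 5.20 and 5.31 log2 CPM in CpG-then-LPS cells, against 6.30 and 6.08 in LPS-alone cells, and a region within the gene (chr19:5841250-5841751) had 4.28 and 3.94 in CpG-then-LPS cells, against 5.63 and 4.96 in LPS-alone cells. The call at the second of these was lost without LPS-alone replicate 1 (-0.85, adjusted p = 0.0679). The single region on Malat1 had 3.90 and 4.12 after CpG and LPS, against 4.33 and 4.10 after LPS alone (adjusted p = 0.474). Over the same 25 regions 4 fell and none rose after CpG alone, against 9.23% lower and 17.7% higher over all regions. With CpG before TNF 8 were higher and 2 lower than with TNF alone, against 11.2% and 6.18% of all regions. The median difference there was 0.29. Among the 13 regions on Neat1, 6 rose before TNF and none fell, and the differences ranged from -0.15 to 0.96. By limma's test of the difference, the effects under LPS and TNF differed at some of these regions only. The region within the gene at chr19:5841250-5841751 passed (-1.43 ± 0.34, adjusted p = 0.0470), where the TNF-alone libraries were apart, at 4.77 and 4.14 log2 CPM. The region across the far end did not (-0.79 ± 0.22, adjusted p = 0.110).

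**Figure D4:**
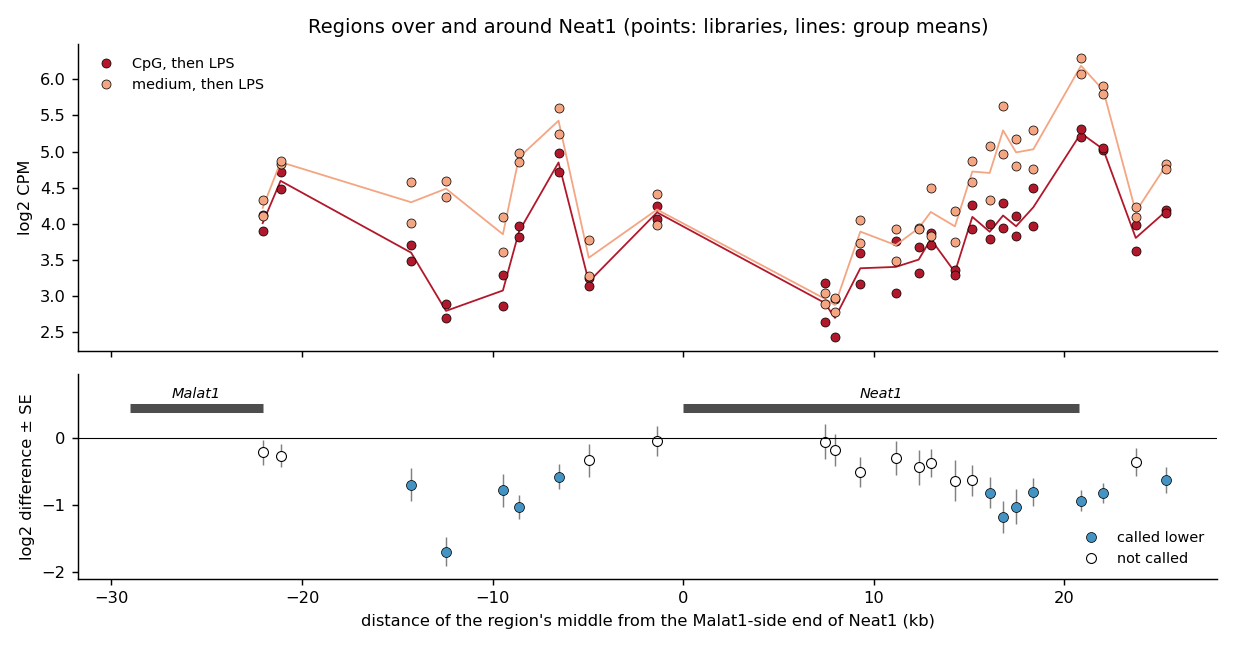
Upper panel, log2 CPM of each library (points) and group means (lines) for CpG-then-LPS (dark red) and LPS-alone (light red) libraries, against the distance in kb of each region's middle from the Malat1-side end of Neat1. Lower panel, log2 difference ± SE with the 12 called regions filled, all 25 below 0, and grey bars marking both genes.

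Called regions were also counted by gene, and whether they gathered at single genes was not tested. Of 3250 genes with 5 or more regions, 101 had at least as many regions called higher as not, 35 had at least as many called lower as not and 832 had none called. The highest count was at Lpp, an adhesion scaffold gene, where 20 of 49 regions rose and none fell. Ppm1h, a phosphatase, had 18 of 31 regions higher, Slco3a1, an organic anion transporter, 11 of 15, and Gpd2, the mitochondrial glycerol phosphate dehydrogenase, 10 of 14. The differences at Gpd2 ranged from 0.09 to 2.42 and were all above 0. Rptor, which encodes the raptor subunit of mTORC1, showed the opposite, with 8 of 15 regions lower and none higher, and Tex14 had 8 of 12 lower. At Tex14, 6 regions were higher and 2 lower after CpG alone, and 2 were higher and 1 lower with CpG before TNF. The other loci also changed in both settings. After CpG alone and with CpG before TNF, 26 and 26 regions were higher at Lpp, 12 and 12 at Ppm1h. At Slco3a1 13 and 9 were higher, and at Gpd2 9 and 9. Lpp and Ppm1h each had 1 lower region after CpG alone. At Rptor 4 were lower in each setting, and 1 was higher with CpG before TNF.

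Whether the difference was also seen without LPS was examined with CpG alone against medium alone, which shares no library with the comparison. There 14474 regions differed (26.9% of all), 9510 higher (17.7%) and 4964 lower (9.23%). The share of higher calls was 65.7% there and 55.6% after quantile normalization. Of the 5671 regions higher with CpG before LPS, 3317 (58.5%, and 34.9% of the 9510) were also higher after CpG alone, and 71 were lower. Of the 3456 lower regions, 1014 (29.3%, and 20.4% of the 4964) were also lower after CpG alone, and 218 were higher. The size of the CpG effect differed between these settings in 5399 regions (10.0%), being smaller or more negative before LPS in 3790 (7.05%) and larger in 1609 (2.99%). CpG-alone cells were harvested 4 h after CpG was added, whereas CpG-then-LPS cells had a further 4 h in fresh medium with LPS, so the second stimulus, the time since CpG and its removal cannot be told apart in this comparison. The count was 3216 without CpG-then-LPS replicate 1, 3300 without LPS-alone replicate 1, 3184 without CpG-alone replicate 2 and 3427 without medium-only replicate 2, and 8360 with only the compared groups in the fit. Promoters that were open after LPS alone were among those with the smaller effect before LPS. At Acod1 the promoter had 5.61 and 5.38 log2 CPM after CpG and LPS, against 5.26 and 5.30 after LPS alone, and 5.16 and 5.42 after CpG alone, against 2.46 and 2.57 in medium, so the effects of CpG differed by -2.56 ± 0.19 (adjusted p = 3.55e-12). Effects differed likewise at the promoters of Socs3, a feedback inhibitor of cytokine signalling (-2.39 ± 0.22), Tnf (-2.00 ± 0.22), Cxcl10 (-1.50 ± 0.20) and Nfkbia (-1.29 ± 0.18). Svil, Usp25, Gna13 and Cp rose in both settings, and for these the difference of effects did not pass the test, for example 0.61 ± 0.59 at Svil and -0.06 ± 0.41 at Usp25.

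With TNF as the second stimulus, CpG before TNF against TNF alone gave 9355 differing regions (17.4%), 6029 higher (11.2%) and 3326 lower (6.18%). Higher calls were 64.4% of these, 54.7% after quantile normalization and 53.6% after the shift to the same median. Without CpG-then-TNF replicate 2, TNF-alone replicate 1 or TNF-alone replicate 2 the calls numbered 5169, 6181 or 5285. Of the regions higher with CpG before LPS, 3137 (55.3%, and 52.0% of the 6029) were also higher with CpG before TNF, and 4 were lower. Among the lower regions 1122 (32.5%, and 33.7% of the 3326) were also lower there, and 12 were higher. In all 3 settings 2457 regions were higher (43.3% of the 5671) and 593 were lower (17.2% of the 3456). The median levels of those 2457 were 3.97 log2 CPM with CpG before LPS against 2.82 with LPS alone, 3.52 with CpG alone against 1.94 in medium, and 3.63 with CpG before TNF against 2.28 with TNF alone. A further 1619 higher regions (28.5%) were called in neither other setting. Their medians were 3.61 with CpG before LPS against 2.80 with LPS alone, 3.23 with CpG alone against 3.16 in medium, and 3.30 with CpG before TNF against 3.08 with TNF alone, and 1204 of them had a higher mean with CpG before TNF than with TNF alone. Among lower regions 1724 (49.9%) were called in neither other setting.

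The effects of prior CpG under LPS and under TNF differed in 171 regions by the test of the difference (0.318% of all), 160 with a lower value under LPS (0.297%) and 11 with a higher value (0.0204%), while 6922 had an unadjusted p under 0.05. With only the compared groups in the fit 928 regions differed, with voom weights 400, after quantile normalization 101 and without a variance trend 65. Leaving out single libraries gave counts from 52 without CpG-then-TNF replicate 2 to 279 without TNF-alone replicate 1. The counts were 62 without CpG-then-LPS replicate 1, 75 without CpG-then-LPS replicate 2, 58 without LPS-alone replicate 1, 92 without LPS-alone replicate 2 and 77 without TNF-alone replicate 2. In the 160 regions the median level was 4.97 log2 CPM with CpG before LPS against 4.48 with LPS alone, and 5.00 with CpG before TNF against 3.07 with TNF alone. Those regions were thus similarly open after CpG, and more open after LPS alone than after TNF alone. In a region assigned to Uaca the values were 4.71 and 4.67 with CpG before LPS, against 3.95 and 4.03 with LPS alone, and the effects differed by -3.26 ± 0.36. At Pdss1, an enzyme of coenzyme Q synthesis, the prior CpG effect was 0.88 ± 0.14 under LPS and 3.64 ± 0.14 under TNF. Near Zeb2 it was 1.58 ± 0.24 and 3.30 ± 0.24, and in Fpr1 1.30 ± 0.22 and 2.85 ± 0.22. Of the 11 regions with a higher value under LPS, the one inside Dph6 had 3.65 and 3.58 with CpG before LPS, against 1.53 and 0.90 with LPS alone, and an effect of 2.40 ± 0.30 under LPS and 0.60 ± 0.30 under TNF. This difference of effects (1.80 ± 0.42, adjusted p = 0.0458) was not called when any of the 8 libraries was left out, with adjusted p of 0.0538 to 0.239. The 11 such regions became 0 without CpG-then-LPS replicate 1 or TNF-alone replicate 2, 1 without LPS-alone replicate 1 or CpG-then-TNF replicate 2, 4 without CpG-then-LPS replicate 2, 58 without CpG-then-TNF replicate 1, 36 without TNF-alone replicate 1 and 203 when the fit held the compared groups alone. The difference of effects stayed called at Uaca and Pdss1 under every alternative run, but was lost at Zeb2 without any of 5 libraries (adjusted p of 0.0602 to 0.126) and at Fpr1 without any of 3 (0.0759 to 0.193), and at both after quantile normalization. Uaca, Pdss1 and Dph6 were chosen after their values were seen.

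**Figure D5:**
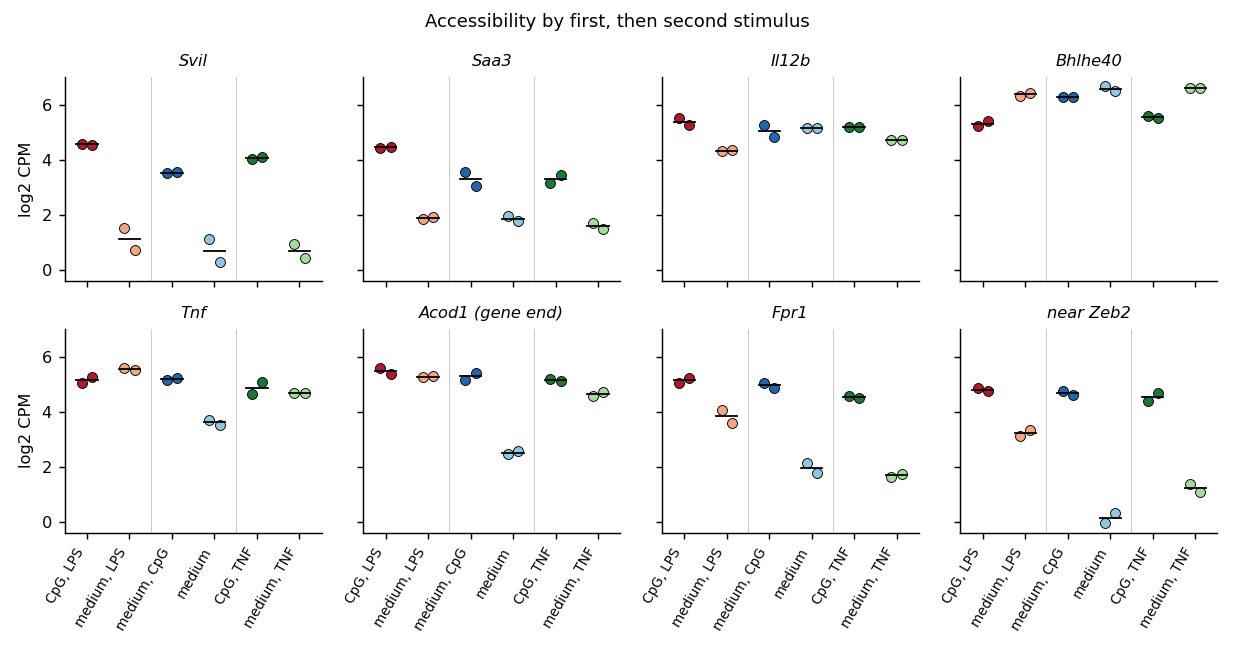
Points are log2 CPM of single libraries and bars are group means for 8 regions, with each group that received CpG to the left of its counterpart that received medium in its place (CpG then LPS, LPS alone, CpG alone, medium, CpG then TNF, TNF alone). Svil and Saa3 are higher after CpG in all 3 settings, Il12b is lowest after LPS alone, and Tnf and Acod1 are high after LPS alone.

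The first stimulus was also varied before the same LPS dose. CpG before LPS differed from polyI:C, a double-stranded RNA mimic sensed by TLR3 and cytosolic RNA sensors, before LPS in 5075 regions (9.43%), 2489 higher (4.63%) and 2586 lower (4.81%). Without CpG-then-LPS replicate 1 or 2 the count was 1911 or 2084, and without polyI:C-then-LPS replicate 1 or 2 it was 2241 or 1784. The Svil region had 4.60 and 4.56 log2 CPM with CpG first, against 2.43 and 0.96 with polyI:C first, and differed by 2.89 ± 0.42 (adjusted p = 2.21e-05). The Saa3 region at the gene had 4.44 and 4.50 with CpG first, against 2.48 and 2.39 with polyI:C first, and Fpr1 5.05 and 5.25 with CpG first, against 3.46 and 3.54 with polyI:C first. These regions were higher with CpG without overlap. Ciita went the other way, with 3.33 and 3.72 with CpG first, against 4.31 and 4.37 with polyI:C first (-0.82 ± 0.19, adjusted p = 0.00535), a call lost without CpG-then-LPS replicate 1 (-0.62, adjusted p = 0.131) or polyI:C-then-LPS replicate 2 (-0.79, adjusted p = 0.0627). Over the 196 regions of interferon-stimulated genes, 3 were higher with CpG first (1.53%, against 4.63% of all regions) and 26 were lower (13.3%, against 4.81%), with a median difference of -0.20. The lower count was 42 after quantile normalization, 52 with only the compared groups, 12 of 142 without the lowest quartile of regions, and 8, 9, 6 or 8 without CpG-then-LPS replicate 1 or 2 or polyI:C-then-LPS replicate 1 or 2. The Ifi205 promoter region was among the lower, with 5.17 and 5.21 with CpG first, against 5.53 and 5.79 with polyI:C first (-0.47 ± 0.15, adjusted p = 0.0407), and it was not called when any of the 4 libraries was left out (adjusted p of 0.0553 to 0.355). Ccl5 had 3.56 and 3.26 with CpG first, against 3.98 in both polyI:C libraries (adjusted p = 0.292), and Ifit2 had 4.08 and 4.18 with CpG first, against 4.74 and 4.57 with polyI:C first (-0.52 ± 0.25, adjusted p = 0.197), so neither difference passed the test. Usp18 was higher with CpG first by 0.87 ± 0.24 (adjusted p = 0.0193), a call lost without CpG-then-LPS replicate 1 or 2 or polyI:C-then-LPS replicate 2 (adjusted p of 0.0769 to 0.335).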

How the data were processed

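Accessible chromatin was measured by ATAC-seq from 50000 cells per library with 50 bp paired reads, per the labels' protocols. The authors used the build mm10 (GRCm38), and their tools include MACS3 3.0.0b1, featureCounts, Picard, SAMtools 1.9 and Bowtie2 2.2.5, per the submitters' processing notes. The deposited table gives log2 CPM for each library at each region. How regions were merged is not given in the sources used here. All deposited values (100%) return whole reads within 0.01 with a mean prior of 3 reads, so differences at regions with few reads are understated.

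Limma 3.58.1 (R 4.3.3) fitted the 9 group means over all 18 libraries with a variance trend (9 residual and 29.09 prior degrees of freedom). P-values were adjusted by Benjamini and Hochberg over 53796 regions and called under 0.05, and the median SE was 0.205. Regions were assigned to the nearest protein-coding gene within 50 kb, which does not show the gene a region regulates. The reference matched 54 of 57 interferon-stimulated gene symbols. The script was tested on simulated data. Named regions included the 12 largest rises and falls among called regions where the groups did not overlap. There the higher group mean had to be at least 1 log2 CPM, each gene was taken once and predicted genes were skipped. Up to 4 called regions per list by p and regions of highest mean for fixed genes were added. Alternatives were quantile normalization, a shift of each library to the same median, leaving out the lowest quartile, no trend, only the compared groups, a replicate block, voom on recovered reads, other region assignments and leaving out each library. Members and lists were chosen with earlier results of these data known. Same-numbered deviations correlated at -0.36 to 0.24 between groups, which cannot settle whether replicate numbers pair libraries.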

Additional observations from a re-analysis of the deposited data

Results flagged for a closer look

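The effect of prior CpG (CpG first minus medium first) differed between LPS and TNF in 171 of all regions, by limma's test of the difference. Among the regions named in the text, Uaca, Pdss1 and Dph6, described above, were called. So was the region within Neat1 at chr19:5841250-5841751 (-1.43 ± 0.34, adjusted p = 0.0470). The calls at 5 other named regions are given next. Near Zeb2 the effect under LPS was lower than under TNF by 1.72 on the log2 scale (difference -1.72 ± 0.34, adjusted p = 0.00765). In Fpr1 the difference was -1.54 ± 0.31 (adjusted p = 0.00976), and near Klf6 it was -1.44 ± 0.24 (adjusted p = 0.00091). The Socs3 promoter region differed by -1.14 ± 0.22 (adjusted p = 0.00732), with 5.74 and 5.79 log2 CPM after CpG and LPS, against 6.10 and 5.55 after LPS alone, and 5.58 and 6.01 after CpG and TNF, against 4.77 and 4.67 after TNF alone. Near Il1b the difference was -0.92 ± 0.22 (adjusted p = 0.0458). The call near Klf6 held under every alternative run, while those at Il1b, Socs3, Zeb2 and Fpr1 were lost without single libraries, with adjusted p up to 0.434, 0.231, 0.126 and 0.193.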

How the results depend on the processing

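With 2 libraries a group, each count rests on every library, and depth limits small differences at regions with few reads. For CpG-then-LPS against LPS-alone, 9127 calls became 5827 without the lowest quartile of regions (fewer tested) and 3851 to 5597 without single libraries (fewer samples), while quantile normalization, the shift to the same median, log2(CPM + 1), robust variances, no trend, only the compared groups and voom kept the count between 7494 and 13584. The replicate block gave 8943 calls, 8850 of them shared, although a pairing of libraries by number was not established. The higher share of calls, 62.1%, became 51.8% after quantile normalization, 42.2% after the median shift and 49.4% without the lowest quartile, and the cause was not tested. It was 61.8% to 70.6% without single libraries.

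For CpG alone against medium, leaving out libraries gave 10025 to 10858 calls. CpG before TNF against TNF alone gave 6062 calls without the lowest quartile and 5169 to 6455 without single libraries. Differences between CpG effects before LPS and alone numbered 8360 with only the compared groups and 3184 to 4606 without single libraries, and those between LPS and TNF numbered 101 after quantile normalization, 65 without a trend, 928 with only the compared groups, 400 with voom and 52 to 279 without single libraries. CpG before LPS against polyI:C before LPS gave 7671 calls after quantile normalization, 3098 without the lowest quartile, 8159 with only the compared groups and 1784 to 2241 without single libraries.

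The next alternatives were chosen after seeing the data. Promoter regions were higher in 4.87% after quantile normalization, 1.28% after the median shift and 5.36% with only the compared groups, and lower in 3.98%, 12.5% and 12.2%. The lowest quartile by level was higher in 12.7% after quantile normalization, and the highest was lower in 8.74%, and in 22.6% after the median shift and 22.1% with only the compared groups. The overlaps with CpG alone and with CpG before TNF stayed within 1.5 times. The share of higher regions fell to 4.05% for AP-1 genes and 7.89% for TLR and TNF signalling genes after the median shift, and to 8.77% for antigen presentation genes after quantile normalization.

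With only regions within 1 kb of a gene end, an alternative planned at the outset, it was 12.1% for NF-kB genes, 9.09% for the IL-10 axis, 3.39% for AP-1, 4.62% for signalling, 2.70% for lipid and 0% for antigen presentation genes, against 4.75% of all regions so placed. Of the 77 regions described one by one, 65 had a call, of which 57 kept it under every alternative run and 8 lost it without a library (2 of these also without a trend), and none changed sign with a call. The other regions that the rule for named regions selects were not run.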

Other observations

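With the deposited values, regions assigned to genes that mark other lineages were more often higher than lower in most lists. Dendritic cell genes had 11 of 59 regions higher and 5 lower, T and NK cell genes 2 of 23 and 1, and B cell genes 1 of 20 and 1. Stromal genes had 7 of 43 higher, erythroid, mast and progenitor genes 4 of 22 and neutrophil genes 1 of 20, with none lower. Over all regions 10.5% were higher and 6.42% lower. The balance depended on the scaling. Under the shift to the same median, dendritic cell genes had 7 higher and 8 lower, T and NK cell genes 1 and 3, and B cell genes 0 and 2. Neutrophil genes then had 1 and 1, stromal genes 5 and 2, and erythroid, mast and progenitor genes 3 and 0. The regions given next are single examples. Inside Tcf4, which encodes the E protein E2-2 of plasmacytoid dendritic cells, a region had 4.37 and 4.17 log2 CPM in CpG-then-LPS cells, against 2.26 and 2.18 in LPS-alone cells, and rose by 2.05 ± 0.28 (limma, adjusted p = 2.32e-06). Near Gfi1b, a repressor of erythroid and megakaryocytic cells, the values were 4.04 and 3.77 after CpG and LPS, against 2.26 and 2.12 after LPS alone, and near Dcn, the matrix proteoglycan decorin, 4.10 and 3.66 after CpG and LPS, against 1.53 and 2.00 after LPS alone. Inside Zbtb46, a factor of conventional dendritic cells, a region fell by 1.08 ± 0.18, with 3.33 and 3.79 in CpG-then-LPS cells, against 4.58 and 4.69 in LPS-alone cells. The promoter regions of Bank1, a B cell adaptor, and Cd5, a T cell surface protein, fell by 0.86 ± 0.16 and 0.94 ± 0.18. Tfec, a factor of the MITF family expressed in macrophages, had 4.16 and 4.15 after CpG and LPS, against 2.70 and 2.29 after LPS alone in an intragenic region.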
